A study of Homo sapiens with 6 samples.

Results

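The genes of tight junctions and desmosomes were followed in HT29 cells, a colorectal adenocarcinoma line, that carried either a laminin α1 expression construct or a control construct. The set held 38 genes chosen by name: claudins, other membrane proteins of the tight junction, their cytoplasmic and polarity partners, desmosomal cadherins, and the plaque proteins behind them. Of the 38 genes, 36 had a probe set that the platform annotation assigned to exactly 1 gene symbol, out of 18417 genes on the arrays with such a probe set. The comparison was of 3 laminin α1 arrays with 3 control arrays, each from a separate culture passage of cells grown for 7 days, with no other agent named in the labels. The labels do not say how many cell clones stood behind each group or which sequence the construct carried, so the errors below describe the spread between passages. The series title asks what the laminin α1 chain changes in cultured colorectal cancer cells.

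Tight junctions seal the space between neighbouring epithelial cells near their apical side. Claudins are the membrane proteins that form the strands of the seal; some close it and others, such as claudin 2, form pores for ions and water. Occludin and the other MARVEL proteins and the JAM proteins join them in the membrane, and ZO proteins and cingulin tie them to actin, while the PAR and Crumbs proteins set the apical side. Desmosomes are spot-like contacts that give mechanical strength: desmogleins and desmocollins bind between cells, and plakoglobin, plakophilins and desmoplakin couple them to keratin filaments.

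The values are log2 expression values, so a difference of 1 is a doubling. Genes whose mean over all 6 arrays lay above the 25th percentile of genes, a level of 5.50, were tested with limma across all 13812 such genes, and a gene passed when its Benjamini-Hochberg adjusted p was below 0.05. Of the 36 genes, 30 were tested. LAMA1, the gene of the laminin α1 chain, had values of 5.79, 5.72 and 5.71 on the laminin α1 arrays and of 5.71, 5.63 and 5.60 on the control arrays. Its difference was 0.09 (95% interval -0.05 to 0.24, n = 3 per group, limma adjusted p = 0.535). The groups did not overlap, as for 21.6% of all genes, but only barely. The lowest laminin α1 value was 5.710 and the highest control value 5.705. All values lay near the filter level of 5.50. Its probes thus do not verify the labels and each group is named by its label. Epithelial markers lay above the level filter on every array, with EPCAM, CDH1, KRT8, KRT18, KRT19, VIL1 and CDX2 between 7.20 and 13.0 on the laminin α1 arrays and between 7.13 and 13.0 on the control arrays, and 0 of the 7 passed. CDX2, at 7.13 to 7.24, lay below the fibroblast marker COL1A1 (7.26 to 7.44) and the leukocyte marker CD68 (7.57 to 7.89). The other epithelial markers were higher than both.

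Of the 30 tested genes, 4 passed the threshold, or 13.3%, against 5.29% of all genes tested. The genes were chosen with earlier results of these data known, so this share is a description and not a test. On the laminin α1 arrays CLDN2 and ESAM were higher, 2 of 30 against 2.69% of all genes, and CLDN1 and PKP2 were lower, 2 of 30 against 2.59% of all genes. The other 26 did not pass, with differences between -0.46 and 0.22. The median difference of the 30 genes was 0.01, against -0.01 over all genes tested, and 16 were positive and 14 negative. The arrays of the groups did not overlap for 10 of the 30 genes, or 33.3%, against 21.6% of all genes, 4 of them higher on the laminin α1 arrays, against 10.1% of all genes, and 6 lower, against 11.5%. Whether a lower value came from less RNA per cell or from fewer cells that express the gene cannot be told apart in bulk RNA.

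**Figure D1:**
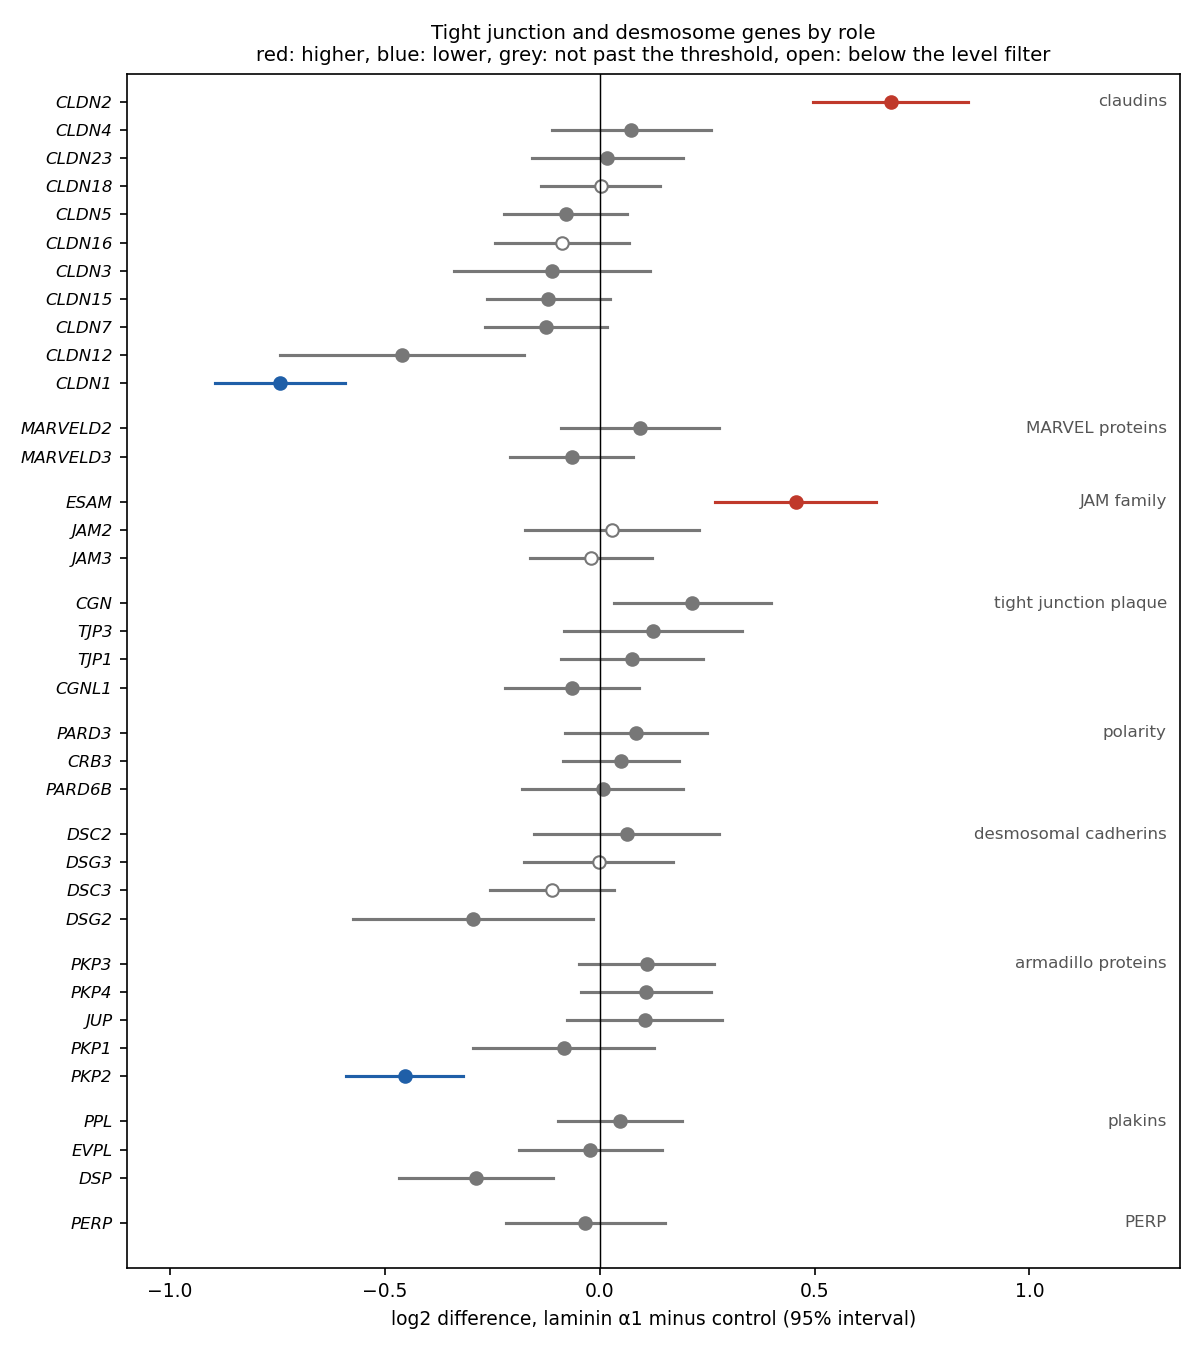
Log2 difference, laminin α1 minus control, of the 36 genes on the arrays, grouped by role, with the 95% interval of the limma fit (n = 3 arrays per group). CLDN2 and ESAM (red) lie above 0 and CLDN1 and PKP2 (blue) below it, while the other tested genes lie between -0.46 and 0.22; open circles are the 6 genes below the level filter.

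The sharpest changes were in the claudins, where CLDN1 fell and CLDN2 rose. Their promoters are shown because they were the genes past the threshold with a promoter sequence available. For ESAM and PKP2, also past it, no promoter sequence was available. Each line gives the 250 bases before a RefSeq transcription start on the build GRCh38.p14, 5′ to 3′, with capitals for the motif matches named after them.
CLDN1, chr3:190322447-190322696, minus strand: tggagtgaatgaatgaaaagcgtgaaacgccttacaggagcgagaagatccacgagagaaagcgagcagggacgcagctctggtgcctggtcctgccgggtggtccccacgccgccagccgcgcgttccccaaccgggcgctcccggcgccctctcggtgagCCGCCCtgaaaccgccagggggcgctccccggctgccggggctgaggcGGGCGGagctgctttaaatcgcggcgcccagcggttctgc
CLDN2, first start, chrX:106899914-106900163, plus strand: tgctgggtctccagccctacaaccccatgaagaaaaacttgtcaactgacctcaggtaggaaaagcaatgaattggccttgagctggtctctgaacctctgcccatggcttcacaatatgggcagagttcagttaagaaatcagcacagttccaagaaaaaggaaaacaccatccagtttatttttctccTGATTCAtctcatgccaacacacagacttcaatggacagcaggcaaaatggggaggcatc
CLDN2, second start, chrX:106918110-106918359, plus strand: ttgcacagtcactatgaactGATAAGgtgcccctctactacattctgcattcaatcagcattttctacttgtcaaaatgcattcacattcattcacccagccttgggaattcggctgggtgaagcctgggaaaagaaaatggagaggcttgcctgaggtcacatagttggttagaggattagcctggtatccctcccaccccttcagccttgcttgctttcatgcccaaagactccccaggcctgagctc

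Both strands were searched for the TATA box TATAAA, the Snail-type E-box CACCTG, the grainyhead-like motif AACNNGTT, the caudal homeobox motif TTTATNG, the GATA motif GATAAG, the GC box GGGCGG, the AP-1 motif TGANTCA and the TCF/LEF motif ATCAAAG. The CLDN1 window held the GC box at 2 places, 88 to 83 and 40 to 35 bases before the start, a motif present in 42.6% of 35116 windows of the same length. The first CLDN2 window held the AP-1 motif 60 to 54 bases before its start, a motif in 6.57% of windows, and the second held the GATA motif 230 to 225 bases before its start, a motif in 5.65% of windows. The matches did not overlap. A match describes letters in the window and not a bound site.

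The windows also differed in base composition. Bases G and C made up 68.8% of the CLDN1 window, against 46.0% and 48.8% in the CLDN2 windows. The median was 66.0% over 37 windows of 25 genes of the set with an entry in the table, and 58.0% over all windows. CpG dinucleotides stood at 0.948 of the number that the base composition gives in the CLDN1 window, and at 0 and 0.0684 of it in the CLDN2 windows. Across the set, the GC box was in 25 of the 37 windows and the E-box in 11, against 17.5% of all windows for the E-box. The AP-1 motif was in 5 windows, the GATA motif in 2 and the grainyhead-like motif in 1 (3.0% of all windows). The TATA box (10.7% of all windows), the caudal homeobox motif (8.93%) and the TCF/LEF motif (2.26%) were in 0 of the 37.

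CLDN1, a claudin that tightens the barrier, had values of 9.84, 9.83 and 9.89 on the laminin α1 arrays, against 10.70, 10.56 and 10.53 on the control arrays. All laminin α1 values lay well below all control values, and the laminin α1 arrays were close to each other. The means were 9.85 ± 0.03 in laminin α1 cells and 10.60 ± 0.09 in control cells (SD, n = 3 each), a difference of -0.74 (SE 0.07, 95% interval -0.90 to -0.59), or 1.68-fold lower, with a limma adjusted p of 0.000125. Its p ranked at place 87 of 13812 genes.

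CLDN2, the pore-forming claudin of leaky epithelia such as the intestinal crypt, had values of 7.67, 7.71 and 7.46 on the laminin α1 arrays, against 7.01, 6.88 and 6.93 on the control arrays. All laminin α1 values lay above all control values, and laminin α1 replicate 3 was the lowest of its group. The means were 7.61 ± 0.13 in laminin α1 cells and 6.94 ± 0.07 in control cells (SD, n = 3 each), a difference of 0.68 (SE 0.08, 95% interval 0.50 to 0.86), or 1.60-fold higher, with a limma adjusted p of 0.000757. Its p ranked at place 158.

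CLDN12, a claudin that lacks the usual PDZ-binding tail, had values of 9.66, 9.96 and 10.25 on the laminin α1 arrays and of 10.37, 10.38 and 10.50 on the control arrays. The groups did not overlap, but the laminin α1 arrays spread widely, and replicate 3 came close to the control arrays. In both groups the values rose from replicate 1 to replicate 3. The difference was -0.46 (SE 0.13, 95% interval -0.74 to -0.18, n = 3 per group) and missed the threshold (limma adjusted p = 0.0732). With a block for the replicate number the same difference passed (limma adjusted p = 0.0119). Without laminin α1 replicate 3 it was -0.61 and passed (limma adjusted p = 0.00395). With any other array left out it did not pass (limma adjusted p between 0.133 and 0.209). In the fit without laminin α1 replicate 3, 5 of the 30 genes were lower past the threshold, against 4.93% of all genes: CLDN1, PKP2, CLDN12, DSP and DSG2.

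The other tested claudins showed no change past the threshold. CLDN7 and CLDN15 had small differences of -0.13 and -0.12, with groups that did not overlap. CLDN7, a claudin of colon epithelium, had values of 11.15, 11.15 and 11.07 on the laminin α1 arrays and 11.29, 11.25 and 11.20 on the control arrays, and did not pass (limma adjusted p = 0.368, 95% interval -0.27 to 0.02). CLDN15, a cation pore of the intestine, had values of 7.50, 7.57 and 7.50 on the laminin α1 arrays and 7.70, 7.65 and 7.58 on the control arrays (limma adjusted p = 0.405). CLDN3 and CLDN4, sealing claudins on the same chromosome, differed by -0.11 (95% interval -0.34 to 0.12) and 0.07 (95% interval -0.11 to 0.26). CLDN5, the claudin of the blood-brain barrier, differed by -0.08, and CLDN23 by 0.02, and the groups of all 4 overlapped. CLDN16 and CLDN18, claudins of kidney and of stomach and lung, lay between 4.91 and 5.19 on all arrays, below the level filter.

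**Figure D2:**
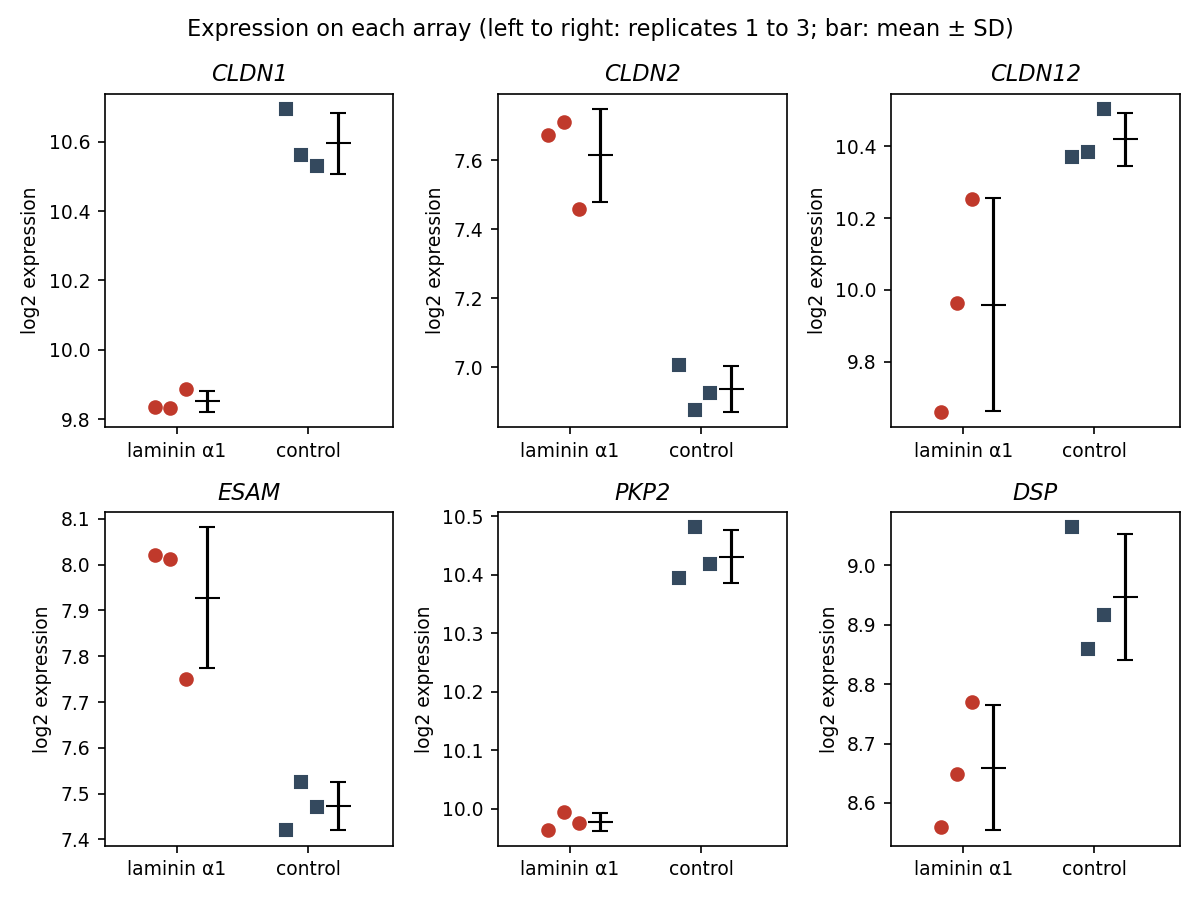
Log2 expression of 6 genes on each array, laminin α1 arrays in red and control arrays in dark blue, with the mean ± SD (n = 3 arrays per group); each panel has its own vertical axis that does not start at 0. CLDN1 and PKP2 are lower and CLDN2 and ESAM higher on all laminin α1 arrays, and for CLDN12 and DSP laminin α1 replicate 3 is the array nearest to the control arrays.

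Among the other membrane proteins of the tight junction, ESAM was the single gene past the threshold. ESAM, an immunoglobulin-family adhesion molecule known mainly from endothelial cells and platelets, had values of 8.02, 8.01 and 7.75 on the laminin α1 arrays, against 7.42, 7.53 and 7.47 on the control arrays. Again the groups were apart, and replicate 3 was the lowest laminin α1 array. The means were 7.93 ± 0.15 in laminin α1 cells and 7.47 ± 0.05 in control cells (SD, n = 3 each), a difference of 0.46 (SE 0.08), or 1.37-fold higher, with a limma adjusted p of 0.0104. The call was lost without control replicate 1 (limma adjusted p = 0.0529) and without laminin α1 replicate 2 (limma adjusted p = 0.0628).

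None of the tested endothelial markers passed limma's threshold beside ESAM. Of the 8 markers PECAM1, CDH5, VWF, KDR, TEK, TIE1, EMCN and ROBO4, 5 lay below the level filter and 0 of the 3 tested passed. Their log2 values summed to between 42.5 and 43.1 on the laminin α1 arrays and between 42.5 and 43.3 on the control arrays. With most of these genes below the filter, such a sum cannot show whether a few endothelial cells were present. ROBO4 is also a neighbour of ESAM in the gene order and differed by -0.01. Fibroblast markers summed to between 43.9 and 44.5 on the laminin α1 arrays and between 43.8 and 44.4 on the control arrays. Of these 8 markers, 3 lay below the filter and 0 of 5 tested genes passed the threshold. Leukocyte markers summed to between 28.8 and 29.1 on the laminin α1 arrays and between 28.9 and 29.0 on the control arrays. Of these 5 markers, 3 lay below the filter and 0 of 2 tested genes passed the threshold. The sum combines differences of opposite sign, such as 0.20 for CD14 and -0.15 for LAPTM5, which lay below the filter.

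JAM2 and JAM3, adhesion molecules related to ESAM, were below the level filter. JAM2 lay at 4.27 to 4.61 on the laminin α1 arrays and 4.30 to 4.47 on the control arrays, and JAM3 at 5.36 to 5.46 on the laminin α1 arrays and 5.38 to 5.50 on the control arrays. F11R, which encodes JAM-A, had no probe set under the naming rule. MARVELD2, which encodes tricellulin of the corners where 3 cells meet, differed by 0.09 (95% interval -0.09 to 0.28), and MARVELD3 by -0.07 (95% interval -0.21 to 0.08). The probe set of OCLN, occludin, is also assigned to the symbol OCLNP1, so it was left out of the tests by the naming rule. That probe set had values of 10.41, 10.52 and 10.61 on the laminin α1 arrays and of 10.70, 10.71 and 10.51 on the control arrays. The groups overlapped, and its difference was -0.13 (95% interval -0.32 to 0.07, limma adjusted p = 0.643 over all probe sets).

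The cytoplasmic plaque and polarity genes had 0 of 7 tested genes past the threshold. CGN, cingulin, which links ZO proteins to actomyosin, had values of 7.97, 7.76 and 7.73 on the laminin α1 arrays and of 7.67, 7.63 and 7.52 on the control arrays. The groups did not overlap, with a difference of 0.22 (95% interval 0.03 to 0.40) and a limma adjusted p of 0.203. CGNL1, its relative paracingulin, differed by -0.06. TJP1 and TJP3, the scaffolds ZO-1 and ZO-3, differed by 0.08 (95% interval -0.09 to 0.24) and 0.12 (95% interval -0.08 to 0.33). PARD3 and PARD6B, of the PAR polarity complex, differed by 0.08 and 0.01, and CRB3, the Crumbs protein of epithelia, by 0.05. CRB3 was the other polarity or plaque gene whose groups did not overlap, but only barely. Its values were 7.492, 7.517 and 7.492 on the laminin α1 arrays and 7.486, 7.415 and 7.451 on the control arrays (limma adjusted p = 0.76).

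In the desmosome, 1 of 11 tested genes passed, PKP2, which at 9.09% is a share from 1 gene, near the 5.29% of all genes tested. Plakophilin 2, an armadillo protein that brings desmoplakin to the membrane, had values of 9.96, 9.99 and 9.98 on the laminin α1 arrays, against 10.39, 10.48 and 10.42 on the control arrays. The laminin α1 arrays were all lower, and each group was tight. The means were 9.98 ± 0.02 in laminin α1 cells and 10.43 ± 0.05 in control cells (SD, n = 3 each), a difference of -0.45 (SE 0.06, 95% interval -0.59 to -0.32), or 1.37-fold lower, with a limma adjusted p of 0.00168. The other armadillo genes did not pass. PKP3 and PKP4, plakophilins too, differed by 0.11 each (95% intervals -0.05 to 0.27 and -0.04 to 0.26), JUP, plakoglobin, by 0.10, and PKP1, the plakophilin of skin, by -0.08.

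DSP, desmoplakin, the plakin that ties the plaque to keratin filaments, had values of 8.56, 8.65 and 8.77 on the laminin α1 arrays and of 9.06, 8.86 and 8.92 on the control arrays. The groups did not overlap, and replicate 3 was the laminin α1 array closest to them. The difference was -0.29 (SE 0.08, 95% interval -0.47 to -0.11) and missed the threshold (limma adjusted p = 0.0771). Without laminin α1 replicate 3 it was -0.34 and passed (limma adjusted p = 0.0307). With any other array left out it did not pass (limma adjusted p between 0.132 and 0.248). The related plakins PPL and EVPL, periplakin and envoplakin, differed by 0.05 and -0.02, and PERP, a tetraspan desmosome protein induced by p53, by -0.03.

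The desmosomal cadherin genes all lie on chromosome 18, and 0 of the 2 tested passed. DSG2, the desmoglein of simple epithelia, had values of 8.93, 9.07 and 9.45 on the laminin α1 arrays and of 9.33, 9.41 and 9.60 on the control arrays. The groups overlapped, since laminin α1 replicate 3 lay above 2 of the control arrays. In both groups the values rose from replicate 1 to replicate 3. The difference of -0.30 (95% interval -0.58 to -0.02) did not pass (limma adjusted p = 0.267). It passed at -0.44 without laminin α1 replicate 3 (limma adjusted p = 0.0159) and with a block for the replicate number (limma adjusted p = 0.0234). With any other array left out it did not pass (limma adjusted p between 0.281 and 0.592). DSC2, its desmocollin partner, had values of 8.65, 8.76 and 9.04 on the laminin α1 arrays and of 8.71, 8.74 and 8.81 on the control arrays, a difference of 0.06 (95% interval -0.15 to 0.28). DSG3 and DSC3, cadherins of stratified epithelium, were below the level filter, between 3.72 and 4.90 on all arrays.

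**Figure D3:**
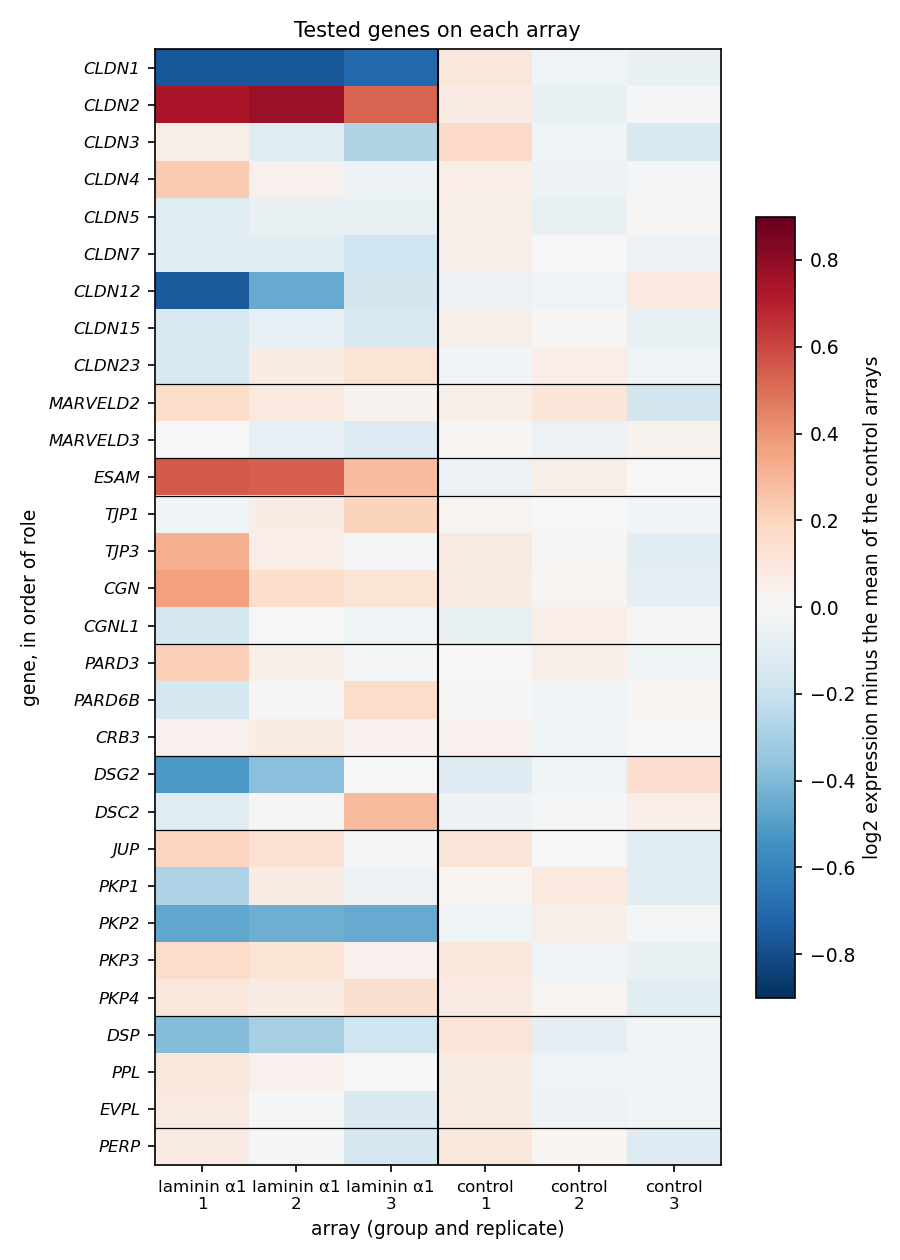
Log2 expression of the 30 tested genes on each array minus the mean of the control arrays, in order of role, with black lines between roles and the laminin α1 arrays on the left. CLDN1 and PKP2 are lower on all 3 laminin α1 arrays, while CLDN12 and DSG2 are lowest on laminin α1 replicate 1 and nearest to the control mean on replicate 3.

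The laminin α1 arrays did not differ from the control arrays to the same extent. Replicate 3 was the laminin α1 array closest to the control mean for 14 of the 30 genes, replicate 2 for 11 and replicate 1 for 5. These were 46.7%, 36.7% and 16.7% of the 30 genes, and over all genes tested the shares were 44.9%, 32.6% and 22.5%. Whatever sets replicate 3 nearer to the control arrays was not tested.

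Of 40 tested genes next to the 4 called genes, 2 passed the threshold, or 5%, close to the 5.29% of all genes tested. With 5 tested genes on each side in the RefSeq gene order, the median difference of the 10 neighbours was -0.05 for CLDN1, -0.01 for CLDN2, -0.03 for ESAM and -0.09 for PKP2. Of the neighbours of CLDN1, 1 passed and it was higher by 0.43, against the direction of CLDN1. Of those of CLDN2, 1 passed and it was higher by 0.71, close to the 0.68 of CLDN2 itself. None of the 10 neighbours of ESAM and none of the 10 of PKP2 passed limma's threshold. Of those of PKP2, 9 had negative differences, against 54.4% of all genes tested, in a range of -0.25 to 0.05 for all 10. The order counts tested genes only, and distances along the chromosome were not measured, so neighbours may lie far apart.

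**Figure D4:**
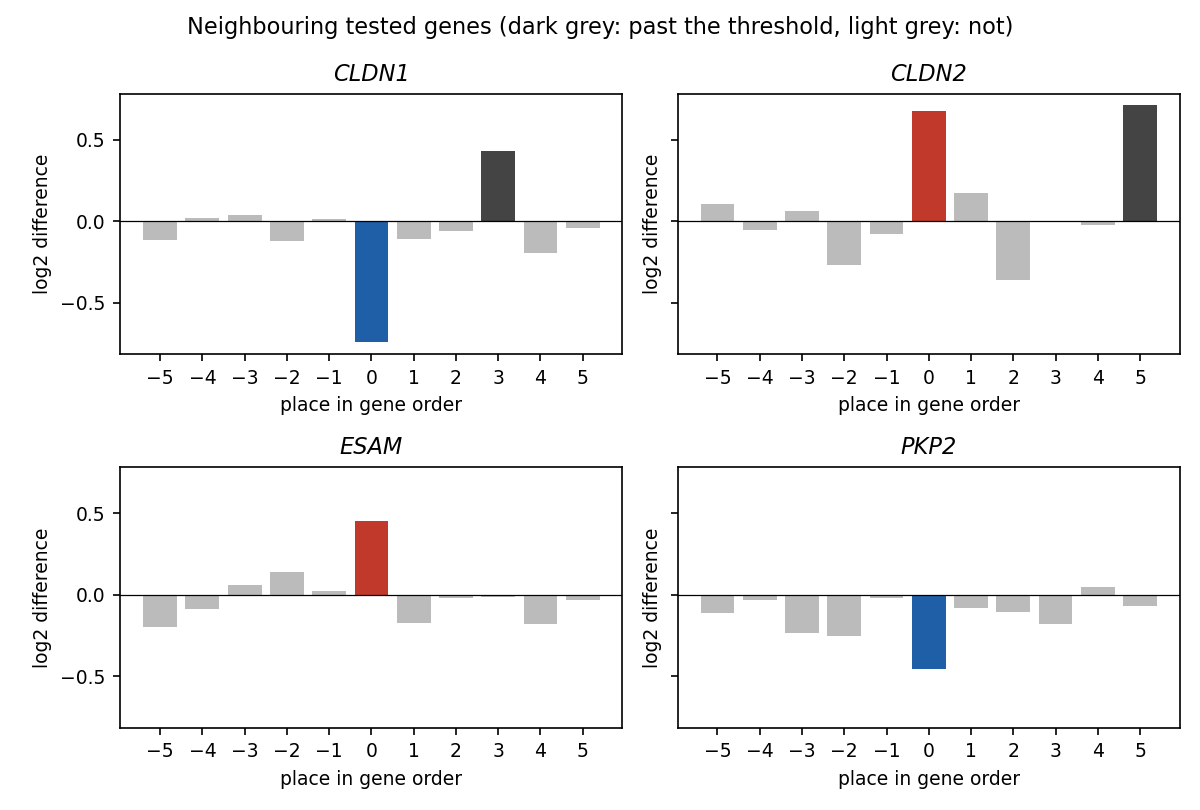
Log2 difference, laminin α1 minus control, of CLDN1, CLDN2, ESAM and PKP2 (coloured bars at 0) and of the 5 tested genes on each side in gene order (grey bars, dark where past the threshold). The median of the 10 neighbours lies between -0.09 and -0.01 in all 4 panels.

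Other genes of cell junctions were read as lists from the same fit, in which 2.69% of all genes tested were higher and 2.59% lower. These lists were chosen with earlier results of these data known, so their shares are descriptions and not tests. The 17 tested further tight junction genes, such as the scaffold partner PATJ, the tricellular protein LSR and the coxsackievirus receptor CXADR, had 0 past the threshold, with differences between -0.20 and 0.12. The 5 tested hemidesmosome genes and the 14 of junction signalling and turnover also had 0, and so did PNN, the single further desmosome gene tested. Adherens junction genes had 2 of 11 past the threshold, or 18.2% against 5.29% of all genes tested. These 2 were lower, against 2.59% of all genes, and 0 were higher, with a median difference of 0.04 over the list. CDH3, P-cadherin, had values of 6.79, 6.55 and 6.67 on the laminin α1 arrays and of 7.14, 7.14 and 7.07 on the control arrays, a difference of -0.45 (SE 0.07, limma adjusted p = 0.00587), and the groups did not overlap. AFDN, afadin, which links nectins to actin, differed by -0.31 (SE 0.07, limma adjusted p = 0.0327), while CDH1, E-cadherin, differed by 0.04 (95% interval -0.11 to 0.19).

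Of 12 tested transcription factors known to act on junction genes, 1 passed, or 8.33%, a share from 1 gene that is near the 5.29% of all genes tested. GRHL3, a grainyhead-like factor of epithelial barriers, had values of 7.33, 7.22 and 7.17 on the laminin α1 arrays and of 6.71, 6.56 and 6.59 on the control arrays. The groups did not overlap, and the difference was 0.62 (SE 0.07), or 1.53-fold higher, with a limma adjusted p of 0.000673. Its relatives GRHL1 and GRHL2 differed by -0.09 and 0.09 and did not pass. SNAI1 and TWIST1, repressors of epithelial adhesion genes, differed by -0.05 and 0.03, and SNAI2, ZEB1 and ZEB2 were below the level filter.

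**Figure D5:**
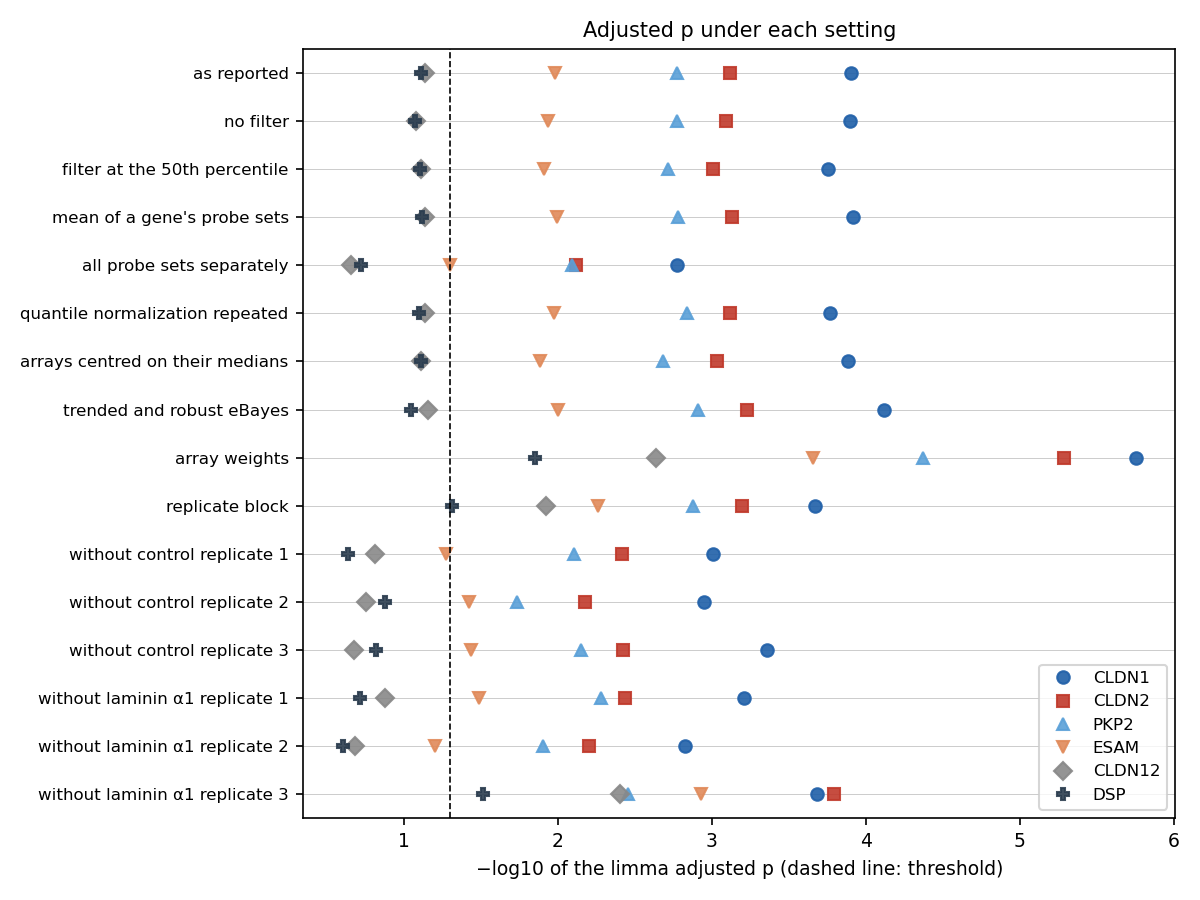
Negative log10 of the limma adjusted p of 6 genes (horizontal axis) under the reported fit and other settings (vertical axis); the dashed line is the threshold of 0.05. CLDN1, CLDN2 and PKP2 stay right of the line in every setting drawn, ESAM falls left of it in 3, and CLDN12 and DSP lie right of it in 3.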

How the data were processed

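RNA of 3 laminin α1 and 3 control HT29 cultures was measured on Affymetrix arrays. The authors deposited log2 values per probe set. The submitters' processing notes name RMA and the program Affymetrix Expression Console, version 1.1, for this step. RMA equalises the distribution of all arrays, so a change of all genes together cannot be seen. The values were used as deposited, with array medians between 6.45 and 6.49, and were taken to be single-channel although the labels name Cy3. The depth of an array is not a count, and 3 arrays per group limit the precision: the median SE of a log2 difference was 0.08.

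Probe sets with exactly 1 symbol in the platform annotation were kept, the brightest for each gene. Genes with a mean above the 25th percentile were tested in R 4.3.3 by limma 3.58.1 (lmFit, then eBayes), laminin α1 minus control, with no covariate, with Benjamini-Hochberg adjustment over all genes of a fit. For the 6 genes below the level filter, differences come from the fit without the filter. The genes and lists were chosen with earlier results of these data known. All members are named, and of each list those past the threshold. The fit was tested on simulated data, with normal noise of each gene's own spread drawn independently for each gene and array. The fit recovered 71% of 100 genes changed by 0.5 in log2 and 98% of 100 changed by 1, with 10 false calls. Variation shared by many genes was not simulated, so these rates may not hold for the real arrays. Smaller changes were not simulated. Promoter sequences are those of RefSeq on GRCh38.p14, and gene order is that of the same assembly, with 13797 tested genes matched. Alternatives were other filters, probe set rules, normalizations, moderation, weights per array, a block for the replicate number, other thresholds and the omission of each array in turn.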

Additional observations from a re-analysis of the deposited data

How the results depend on the processing

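CLDN1, CLDN2 and PKP2 kept their direction and passed under every alternative except the demand for a 2-fold change, which 0 higher and 0 lower genes of the set and 67 of all genes met. The count of all genes past the threshold, 730, became 393 at an adjusted p below 0.01, 1596 with the replicate block, 2607 with array weights and 405 (without control replicate 2) to 1211 (without laminin α1 replicate 3) with 1 array left out, with 429 without laminin α1 replicate 2. Higher genes of the set, 2 as reported, were 1 with all probe sets tested separately and 1 at an adjusted p below 0.01, each without ESAM, and 1 to 2 with 1 array left out. Lower genes, 2 as reported, were 5 with array weights (10.1% of all genes were lower) and 5 with the replicate block (6.15%), by CLDN12, DSP and DSG2, and 2 to 5 with 1 array left out. Array weights came from limma's gene-by-gene method, since its REML method did not converge, and gave replicate 2 of each group 3.17 (laminin α1) and 3.34 (control) and the other arrays at most 0.729.

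The replicate number was tried as a block because both groups carry the same numbers. The deviations of same-numbered arrays from their group means correlated across genes at 0.39 for number 1, 0.02 for number 2 and 0.53 for number 3. Laminin α1 replicate 1 with control replicate 3 gave -0.44, and laminin α1 replicate 3 with control replicate 1 gave -0.49. Deviations from a group mean cancel out within the group, so these values are tied to each other. They describe mainly the contrast between numbers 1 and 3, which ran alike in both groups. The labels do not say that the numbers pair the arrays, so the reported fit had no block. Laminin α1 replicate 2 correlated best with control replicate 1, at 0.16. With the replicate block CGN was also higher (limma adjusted p = 0.0495).

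Of the tested genes, 7 changed sign under an alternative, and none of them passed limma's threshold there: with 1 array left out CLDN4 ran from -0.0075 to 0.14, CLDN23 from -0.034 to 0.094, PARD6B from -0.073 to 0.088, DSC2 from -0.049 to 0.15, PKP1 from -0.16 to 0.012, EVPL from -0.074 to 0.031 and PERP from -0.091 to 0.030. PARD6B was also -0.00075 with quantile normalization repeated, and EVPL 0.0022 with array weights. The cause was not tested. Arrays give no depth, and the 6 genes below the level filter have signals too low for a change in them to be read.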
